A study of Homo sapiens with 45 samples.

Results

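The clustered protocadherin genes encode cell-surface proteins of the cadherin family and lie in 3 neighbouring clusters, alpha, beta and gamma, on human chromosome 5. They were taken by symbol from the count table of 8 RNA libraries, as every name of the PCDHA, PCDHAC, PCDHB, PCDHGA, PCDHGB or PCDHGC series followed by a number. The rule found 53 genes among 28278 names, of which 15 belong to the alpha cluster, 16 to the beta cluster and 22 to the gamma cluster. Pseudogenes of the clusters carry other symbols and were not members.

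Each alpha and gamma gene has its own long first exon, which encodes the extracellular cadherin repeats, and splices to 3′ exons that the whole cluster shares. Beta genes have a single coding exon and no shared tail. In neurons each cell expresses a small, partly random choice of these genes, and the proteins bind to the same combination on another cell, so that branches of one neuron recognise each other. The choice runs over promoters that CTCF and cohesin join to distant enhancers, and silent copies carry DNA methylation and, in many tissues, H3K9me3, the lysine methylation of histone H3 that marks constitutive heterochromatin.

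The cells were HCT116, an established human colon cancer line, given 25 nM of siRNA for 72 hours. HNRNPK, the target of the knockdown, encodes an RNA-binding protein found mainly in the nucleus. The RNA comparison set 4 libraries of a nontargeting siRNA, named siNTC5, against 4 libraries of the HNRNPK siRNA, named siHNRNPK. In both groups the TruSeq kit was used for replicates 1 and 2 and the Ligation kit for replicates 3 and 4. Another 2 controls, named Scramble, are TruSeq libraries from a different RNA purification kit with their own count tables. Chromatin was described by deposited domain lists, 1 for each antibody and siRNA, for lamin B1 (a filament protein that lines the nuclear envelope), H3K9me3 and H3K27me3 (the Polycomb mark) under both siRNAs, and for H3K9me2 under the control siRNA. The lists carry no replicates, so every domain state below is a description without a test. The labels do not say whether replicate libraries came from separate cultures, so the p-values measure the spread between these libraries, which may be technical.

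Library totals ran from 12107280 to 23633851 counts in the 8 libraries and were 59209169 and 55007171 counts in the Scramble pair. HNRNPK itself measured 933.3, 966.3, 821.3 and 812.9 CPM (counts scaled to the size of the library, with TMM) in the siNTC5 libraries and 250.1, 222.4, 156.9 and 164.0 CPM in the siHNRNPK libraries. The groups did not overlap, and the mean fell from 883 ± 77.9 to 198 ± 45.3 CPM (SD, n = 4 each), to 22.4% of the control. The log2 fold change was -2.17 ± 0.06 (SE; edgeR adjusted p = 7.3e-15), and p was 0.0286 in an exact permutation test on CPM (two-sided), where 4 libraries against 4 can give none smaller. Of 6 epithelial markers 5 averaged at least 1 CPM over the 8 libraries, led by KRT8 at 1732 CPM, and VIL1 was at 0.24 CPM. Summed, they ran from 2683 to 3097 CPM in siNTC5 and from 4389 to 5421 CPM in siHNRNPK. Neuronal markers summed to 93.1 to 123 CPM in siNTC5 and 118 to 153 CPM in siHNRNPK, nearly all of it SYT1, with STMN2 and GAP43 at 0.03 CPM. The 4 fibroblast markers summed to 44.4 to 73.0 CPM in siNTC5 and 75.01 to 122 CPM in siHNRNPK, mostly COL1A1, and the 3 leukocyte markers to 0.167 to 0.474 and 0.668 to 1.38 CPM. The part of these shifts in the results below was not tested.

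The promoters show how the 3 clusters are related. RefSeq promoter windows (GRCh38.p14, 250 bases before to 50 after the start) were matched for 47 of the 53 genes. For each cluster the stretch of 8 bases held by most of its promoters, on either strand, was looked up, a choice made from the sequences themselves. It was ATGTCGCT in 9 of 13 alpha promoters, GTGGCGCT in 13 of 14 beta promoters and GCCGCTGT in 11 of 20 gamma promoters. No promoter of another cluster held the stretch of a given cluster. Over 27305 genes with a promoter window these stretches occurred in 0.282%, 1.38% and 1.98%. In the alpha and beta clusters another stretch of 8 bases, overlapping the one given, was held by as many promoters. All 3 contain the letters CGCT, which 46 of the 47 member promoters hold on either strand, against 71.9% of all promoters. The match began 42 to 85 bases before the start in the alpha genes, 1 to 83 bases before it in the beta genes and 42 to 97 bases before it in the gamma genes. The following genes are shown because each is named in a result below or lies at the edge of a domain, with the match in capitals, on the plus strand of chromosome 5.
PCDHA1, chr5:140786078-140786125, first alpha gene: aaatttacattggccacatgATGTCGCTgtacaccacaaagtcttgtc
PCDHA12, chr5:140875236-140875283, an alpha gene with a single count: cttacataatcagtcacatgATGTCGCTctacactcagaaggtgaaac
PCDHB14, chr5:141223255-141223302, a beta gene with counts in Scramble: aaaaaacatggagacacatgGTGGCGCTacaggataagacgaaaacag
PCDHB15, chr5:141245306-141245353, last beta gene: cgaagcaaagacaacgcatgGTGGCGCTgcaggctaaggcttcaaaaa
PCDHGA1, chr5:141330397-141330444, first gamma gene: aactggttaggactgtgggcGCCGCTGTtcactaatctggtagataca
PCDHGA10, chr5:141412925-141412972, most abundant member: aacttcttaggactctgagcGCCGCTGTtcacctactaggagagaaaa
PCDHGC3, chr5:141475874-141475921, outside every domain: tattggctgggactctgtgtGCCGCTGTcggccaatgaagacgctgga
PCDHGA11, the gene with the largest tested change, holds only the first 7 of those 8 gamma letters, 65 bases before its start:
PCDHGA11, chr5:141420966-141421013: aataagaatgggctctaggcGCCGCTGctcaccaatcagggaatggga
These matches are letters in a window, and no factor was measured on them.

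In control cells most member starts lay in 2 blocks of H3K9me3, each of which overlapped a lamin B1 domain in part. On GRCh38 the first H3K9me3 domain covered chr5:140720001-140930000, with a deposited score of 1.34 in a list whose median is 0.793, and held the starts of 14 of 15 alpha genes. The second covered chr5:141060001-141455000, with a score of 1.74, and held 15 of 16 beta and 19 of 22 gamma starts. In all, 48 of 53 member starts lay in control H3K9me3, where 8.79% of 18292 gene starts of the count table did. The 5 starts outside were PCDHAC2, PCDHB1, PCDHGC3, PCDHGC4 and PCDHGC5. PCDHAC2 and the PCDHGC genes are C-type members, which many neurons express without a random choice, while the fifth C-type gene, PCDHAC1, lay inside the domain. The scores are the authors' own and are used only to describe a domain within its list.

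Control lamin B1 domains covered chr5:140735001-140920000 (score 0.782) and chr5:141035001-141400000 (score 1.07), in a list with a median of 0.777. They held 42 of the 53 starts, 13 alpha, 16 beta and 13 gamma, against 12.0% of all gene starts. The gamma cluster was cut by the end of the second domain: the 13 genes from PCDHGA1 to PCDHGB5 lay inside, and the 9 from PCDHGA9 to PCDHGC5 lay outside. Of those 9, PCDHGA9, PCDHGB6, PCDHGA10, PCDHGB7, PCDHGA11 and PCDHGA12 were still in H3K9me3. PCDHB1 was the reverse, in lamin B1 and outside H3K9me3. These counts are by the gene start, and alpha and gamma genes run on to the shared 3′ exons. When at least 50% of the gene body had to be covered, 21 members lay in control lamin B1, 5 alpha, 16 beta and 0 gamma, so the split of the gamma genes is one of starts, or of any overlap of the gene body, and not of most of the body. By the same rule 35 members lay in control H3K9me3.

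A single control H3K9me2 domain, chr5:141140001-141290000, held 11 of 16 beta starts, from PCDHB6 to PCDHB15, and no alpha or gamma start. Its score of 0.662 is near the lowest in its list, 0.631. Over all genes 8.19% of starts lay in H3K9me2. No member start lay in an H3K27me3 domain under either siRNA, where 22.6% of all gene starts did in control cells and 20.9% after knockdown.

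**Figure D1:**
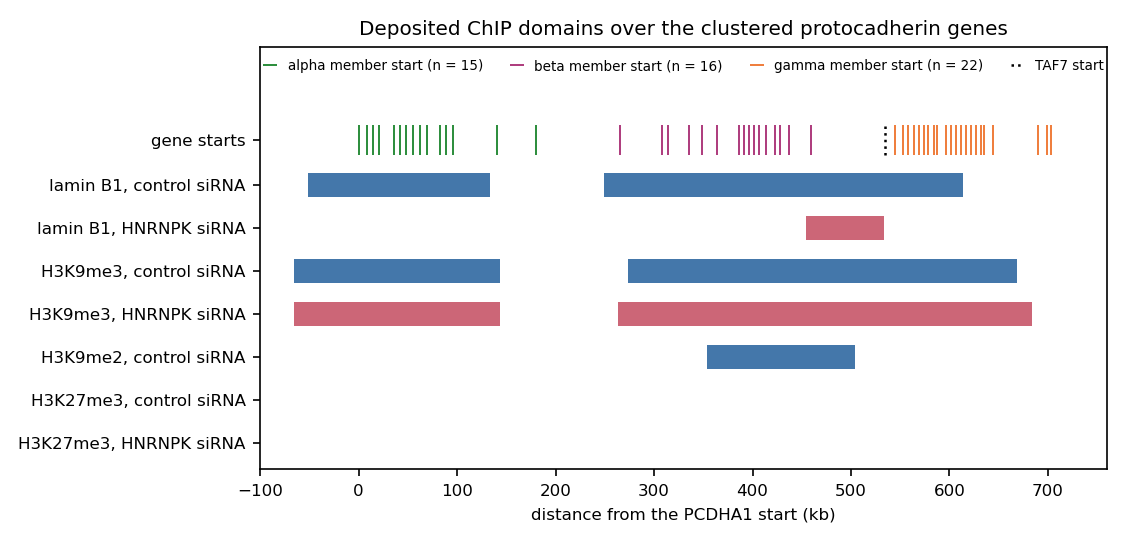
Deposited domains over the 3 clusters, plotted against the distance in kb from the PCDHA1 start, with control siRNA in blue, HNRNPK siRNA in red and gene starts as ticks. The 2 H3K9me3 blocks are present in both conditions, while 1 lamin B1 block of 80 kb is listed after knockdown and no H3K27me3 block is listed in either.

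After HNRNPK knockdown the lamin B1 domains of the clusters were gone from the list except for one remnant. It covered chr5:141240001-141320000, with a score of 0.540, and held 1 member start, PCDHB15, the last beta gene. After knockdown 8.1% of all gene starts lay in a lamin B1 domain. Of the members, 41 of the 42 starts in control lamin B1 lay outside it under the HNRNPK siRNA: 13 of 13 alpha, 15 of 16 beta and 13 of 13 gamma. Over all genes 44.8% of 2202 starts in control lamin B1 lay outside after knockdown. The covered share of the alpha span went from 59.2% to 0%, that of the beta span from 100% to 4.73% and that of the gamma span from 38.1% to 0%. The lowest deposited lamin B1 score was 0.267 in the control list and 0.477 in the knockdown list, so a domain below 0.477 after knockdown would not be listed. Both control domains score above that limit, and with both lists held to it 41 of 42 member starts still lay outside after knockdown, against 38.4% of 1918 starts over all genes. By the gene body 20 of 21 members lay outside lamin B1 after knockdown, 5 alpha, 15 beta and 0 gamma. Member starts are not independent of each other, since they fall in 2 domains.

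H3K9me3 stayed in the regions that were no longer listed for lamin B1. All 48 member starts in control H3K9me3 were in H3K9me3 after knockdown, as were 99.2% of the 1608 starts over all genes, and PCDHB1 joined them. The first domain kept its edges at chr5:140720001-140930000, and the second ran from 141050001 to 141470000, longer at both ends. Their scores were 1.98 and 2.29 in a list with a median of 0.709. H3K9me3 covered 63.6% of the alpha span in both conditions. It covered 95.6% of the beta span and 68.2% of the gamma span in control cells, and 100% and 76.4% after knockdown. In all, 40 of 53 members left a lamin B1 domain and remained in H3K9me3, out of 41 whose starts lay in both in control cells. Over all genes 176 of 1125 starts in both (15.6%) lay outside lamin B1 after knockdown. The knockdown list holds 1996 H3K9me3 domains against 895 in control, and 12.9% of all gene starts lay in one.

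Other genes in the same control chromatin were compared by the marks at their starts, among genes with a promoter window. Where a start lay in lamin B1 and H3K9me3 without H3K9me2 or H3K27me3, 28 of 28 member starts and 19 of 31 other starts (61.3%) lay outside lamin B1 after knockdown. Where H3K9me2 was present as well, 8 of 9 member starts (88.9%), all beta, and 63 of 864 other starts (7.29%) lay outside lamin B1. The H3K9me2 of these members is 1 domain with a score of 0.662, near the lowest in its list, 0.631. At scores at or above the list median 0 members lay in H3K9me2, so this class of members is borderline. The member starts of each class fall in 1 or 2 domains, so these shares are set side by side without a test. Among lamin B1 starts with H3K27me3 alone, 84.9% of 602 starts lay outside after knockdown, and no member was among them.

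**Figure D2:**
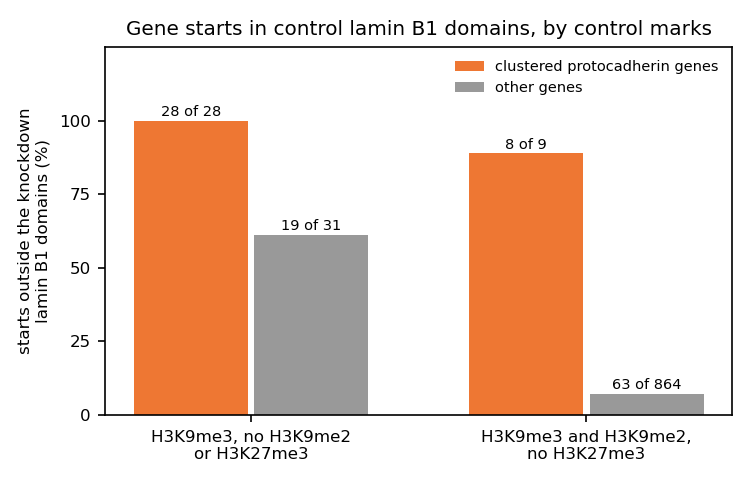
Share in percent of gene starts in control lamin B1 domains that lay outside lamin B1 domains after HNRNPK knockdown, for 2 combinations of control marks, with members in orange and other genes in grey. Bars start at 0 and carry their counts, 28 of 28 and 8 of 9 for members against 19 of 31 and 63 of 864 for other genes. The members with H3K9me2 lie in 1 domain whose score is near the lowest in its list.

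The RNA of the clusters was close to absent in the table of 8 libraries. Over those libraries the alpha genes summed to 39 counts, the beta genes to 0 and the gamma genes to 1271, of 126522446 counts in all. Of the 53 members 28 were listed at 0 in every one of the 8 libraries, 12 alpha and 16 beta, while each of the 22 gamma genes had a count somewhere. These genes are therefore called listed at 0 and not silent. In the Scramble libraries, which are nontargeting controls of the same line, 11 of those 28 genes had counts in both libraries, 9 of them beta. Among the 25527 names shared by the tables, 109 genes at 0 in all 8 libraries had at least 500 counts in both Scramble libraries, and they include PSME1, HRAS and DDX24, which most cells express. The submitters' processing notes name hg38 for the 8 libraries and both hg19 and hg38 for the Scramble pair, and the annotation and the treatment of reads that match several genes are not given in the sources used here. Reads in the shared 3′ exons of the alpha and gamma clusters cannot be assigned to a single gene, so counts of single members are uncertain.

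In the alpha cluster PCDHAC2, a C-type gene outside both kinds of domain, held 36 of the 39 counts. It measured 0.0592, 0.375, 0.399 and 0.109 CPM in siNTC5 and 0.461, 0.297, 0.421 and 0.165 CPM in siHNRNPK, and the groups overlapped. PCDHAC1 had 1 count in each of siNTC5 replicates 3 and 4, and PCDHA12 had 1 count in siHNRNPK replicate 4. All alpha and beta genes fell below the filter on low counts and were not tested.

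In the gamma cluster the counts lay mostly with the genes that start past the end of the control lamin B1 domain. The 9 genes outside it held 79.6% of the gamma counts and the 13 inside it 20.4%. PCDHGA10 alone held 541 of the 1012 counts of the genes outside. PCDHGA10, PCDHGB7 and PCDHGA11, which lie side by side outside lamin B1 and inside H3K9me3, were the 3 members that passed the filter. Lengths are not given in the count table, so levels of different genes are not compared per length.

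PCDHGA10, a standard gamma gene of the A subfamily, was the most abundant member. It measured 3.79, 3.92, 3.59 and 4.16 CPM in siNTC5 and 5.93, 4.38, 4.80 and 3.87 CPM in siHNRNPK. One knockdown library lay within the control range and 3 above it. The log2 fold change was 0.30 ± 0.16 (SE), which did not pass the test (edgeR quasi-likelihood, adjusted p = 0.0997). PCDHGB7, of the B subfamily, measured 0.711, 0.793, 0.799 and 0.656 CPM in siNTC5 and 0.790, 1.19, 1.26 and 0.494 CPM in siHNRNPK. The groups overlapped and the log2 fold change of 0.33 ± 0.33 did not pass (edgeR adjusted p = 0.391).

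PCDHGA11 was the single member called, 1 of 3 tested, where 71.5% of 13933 genes were called and 35.5% were called higher. It measured 0.296, 0.542, 0.865 and 0.601 CPM in siNTC5 and 0.527, 2.82, 0.842 and 0.823 CPM in siHNRNPK. Only siHNRNPK replicate 2, with 38 counts against 8, 10 and 10 in the other 3, stood above the controls, which had 5, 13, 13 and 11. PCDHGA11 reached the limit of the filter in siHNRNPK replicates 2, 3 and 4 and, among the controls, in siNTC5 replicate 3 alone. It was thus admitted mainly through the knockdown libraries, and its call rests in part on the values that admitted it. The log2 fold change was 1.12 ± 0.47 (SE; edgeR adjusted p = 0.0415). Without siHNRNPK replicate 2 it was 0.22 (adjusted p = 0.645), without siNTC5 replicate 1 it was 0.86 (adjusted p = 0.0807) and without siNTC5 replicate 2 it was 1.02 (adjusted p = 0.0930). In the Ligation libraries alone it was 0.19 (adjusted p = 0.728), and DESeq2 gave 1.10 (adjusted p = 0.0556).

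Across the gamma cluster the knockdown libraries held more counts, spread over many genes. Summed over all 22 members the siNTC5 libraries measured 6.93, 7.93, 7.99 and 8.20 CPM and the siHNRNPK libraries 13.8, 15.3, 12.3 and 10.9 CPM. The groups did not overlap, and the means were 7.76 ± 0.57 and 13.1 ± 1.87 CPM (SD, n = 4 each), a ratio of 1.68. The ratio was 2.14 without PCDHGA10, and it ran from 1.59 to 1.78 when any one library was left out. It was 1.96 in the TruSeq libraries and 1.44 in the Ligation libraries. No test was made of this sum. The separation holds against siNTC5: scaled to library totals, the Scramble libraries stood at 11.2 and 9.36 CPM, and the first of them lay above siHNRNPK replicate 4 at 10.6 CPM.

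The ratio was larger for the gamma genes whose starts lay in control lamin B1 and outside it after knockdown. The 13 genes inside the control domain summed to 0.770, 1.502, 1.13 and 1.04 CPM in siNTC5 and to 4.02, 2.89, 1.94 and 4.20 CPM in siHNRNPK. Every knockdown library lay above every control, and the ratio of the means was 2.94. The 9 genes outside summed to 6.16, 6.42, 6.85 and 7.16 CPM in siNTC5 and to 9.75, 12.4, 10.4 and 6.75 CPM in siHNRNPK. There 3 of the 4 knockdown libraries lay above every control, and the ratio was 1.48. The difference between these ratios was not tested, and the grouping rests on the starts, since no gamma gene body lay mostly in lamin B1. The first group amounts to 259 counts over 8 libraries, so it rests on few reads. No gene of the first group averaged above 0.326 CPM in siNTC5. PCDHGA10 alone averaged 3.87 of the 6.65 CPM of the second group in siNTC5 and 4.74 of its 9.81 CPM in siHNRNPK. The ratio of 1.48 thus leans on that gene, and this split was not made without PCDHGA10. Over all genes with an average log2 CPM under 0, the median log2 fold change without a filter was 0.67. The part of expression level in these ratios was not tested.

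**Figure D3:**
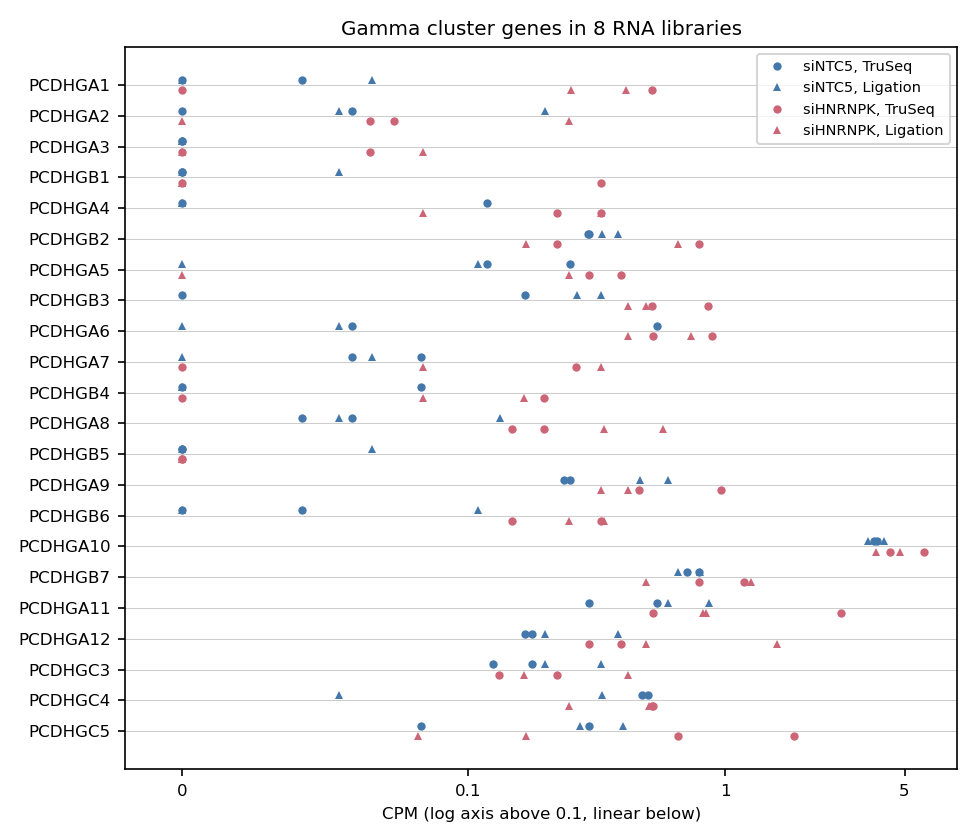
CPM of the 22 gamma genes in each of the 8 RNA libraries, on an axis that is linear below 0.1 CPM and logarithmic above, in gene order, with siNTC5 in blue, siHNRNPK in red, TruSeq libraries as circles and Ligation libraries as triangles. PCDHGA10 stands at 3.59 to 5.93 CPM, and single knockdown libraries stand apart for PCDHGA11, PCDHGA12 and PCDHGC5.

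With no filter on low counts 25 members could be fitted, and 8 of them were called higher and 0 lower, where 24.7% of 21564 genes were called higher. Among the 8163 genes with an average log2 CPM under 0, where most members lie, 11.6% were called higher and 2.71% lower. The 8 members were all gamma: PCDHGA1, PCDHGA4, PCDHGB3 and PCDHGA6 from inside the control lamin B1 domain, and PCDHGB6, PCDHGA11, PCDHGA12 and PCDHGC5 from outside. Of the 22 gamma genes 21 had a log2 fold change above 0, with a median of 1.36. Genes of that low level also lay above 0 in 65.8% of cases, with a median of 0.67, while the median of the 13933 filtered genes was 0.00. Without a filter the fold change of a gene with a handful of counts depends on the prior count, so it is given for direction only.

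The 8 calls without a filter differed in how many libraries carried them. PCDHGB3 measured 0, 0.167, 0.266 and 0.328 CPM in siNTC5 and 0.856, 0.519, 0.421 and 0.494 CPM in siHNRNPK, without overlap. PCDHGB6 also showed every knockdown library above every control, as did PCDHGA8, which is not among the 8 calls (edgeR adjusted p = 0.0769 without a filter). PCDHGB3, PCDHGB6 and PCDHGA8 are 3 of 25 members with a count, where 21.6% of all genes with a count did so. PCDHGA1 and PCDHGA4 each had 3 knockdown libraries above every control. PCDHGA6 measured 0.0592, 0.542, 0 and 0.0547 CPM in siNTC5 and 0.527, 0.890, 0.421 and 0.741 CPM in siHNRNPK. There siNTC5 replicate 2 lay within the knockdown range and the other 3 controls below it. PCDHGA12 was highest in siHNRNPK replicate 3, at 1.60 CPM against 0.395, 0.297 and 0.494 in the others. PCDHGC5 was highest in siHNRNPK replicate 2, at 1.86 CPM, followed by replicate 1 at 0.658 CPM, and at 0.168 and 0.0823 CPM in replicates 3 and 4, within or below the control range of 0.0834 to 0.399 CPM. In the TruSeq libraries alone PCDHGC5 was the only member called, with PCDHGA11 below the filter. There PCDHGC5 stood at 0.296 and 0.0834 CPM in siNTC5 and passed the filter only through the knockdown libraries. Its call thus rests on the values that admitted it. The libraries that stood apart were thus not the same from gene to gene.

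Whether the response differed between the kits was tested with an interaction term. No member passed, 0 of 3 tested with edgeR, with 0 at an unadjusted p under 0.05 and 0 with DESeq2. Over all genes 18 of 13933 (0.129%) passed. The interaction was -1.67 ± 0.91 on the log2 scale for PCDHGA11 (edgeR adjusted p = 0.490), -0.27 ± 0.31 for PCDHGA10 (edgeR adjusted p = 0.794) and -0.09 ± 0.68 for PCDHGB7 (edgeR adjusted p = 0.978), as Ligation minus TruSeq.

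The 2 sets of nontargeting controls gave different pictures of the alpha and beta clusters. Scaled to library totals alone (CPM without TMM), the alpha genes summed to 7.13 and 8.60 in Scramble and to 0.0598 to 0.473 in siNTC5, and the beta genes to 2.63 and 2.69 against 0. The gamma genes summed to 11.2 and 9.36 in Scramble and to 6.996 to 8.36 in siNTC5. Single genes are given in CPM with TMM over all 10 RNA libraries on the shared names, so they do not add up to these sums. On that scale PCDHAC2 stood at 5.74 and 7.52 CPM in Scramble and at 0.237 ± 0.177 CPM in siNTC5 (SD, n = 4, edgeR adjusted p = 6.7e-07). PCDHAC1 stood at 2.54 and 2.47 CPM against 0.0305 CPM, and PCDHB14 at 1.16 and 0.823 CPM against a listing at 0. PCDHGA10 was at 8.85 and 6.72 CPM against 3.88 ± 0.24 CPM (log2 fold change 0.96 ± 0.18, adjusted p = 4.6e-04). Of 8 members tested 6 were higher in Scramble, these 4 with PCDHGB2 and PCDHGA9, and 0 were lower, where 35.1% of 14263 genes were higher. PCDHAC1, PCDHAC2, PCDHB14 and PCDHGB2 stood at 0.402 CPM or below in every siNTC5 library. They passed the filter only through Scramble, where they were high, so their calls rest on the values that admitted them. PCDHGA9 stood at 0.606 CPM in siNTC5 replicate 4 and at 0.469 CPM or below in the other siNTC5 libraries. It needed the Scramble values, 0.84 and 0.91 CPM, to pass the filter, so its call has the same limit. PCDHGC4 and PCDHGC5, at 0 in both Scramble libraries, were not tested, so the lack of lower calls depends on the filter. With no filter 11 members were higher and 2 lower. PCDHGB7 and PCDHGA11, at 0.44 ± 0.35 and -0.11 ± 0.50 on the log2 scale, did not pass the test. The siRNA, the purification kit and the count table differ together between these sets and cannot be told apart. Among counts from 1 to 49, 73.2% and 72.6% of the Scramble values were even numbers, against 43.1% to 46.7% in the 8 libraries, and the part of this in the difference was not tested.

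**Figure D4:**
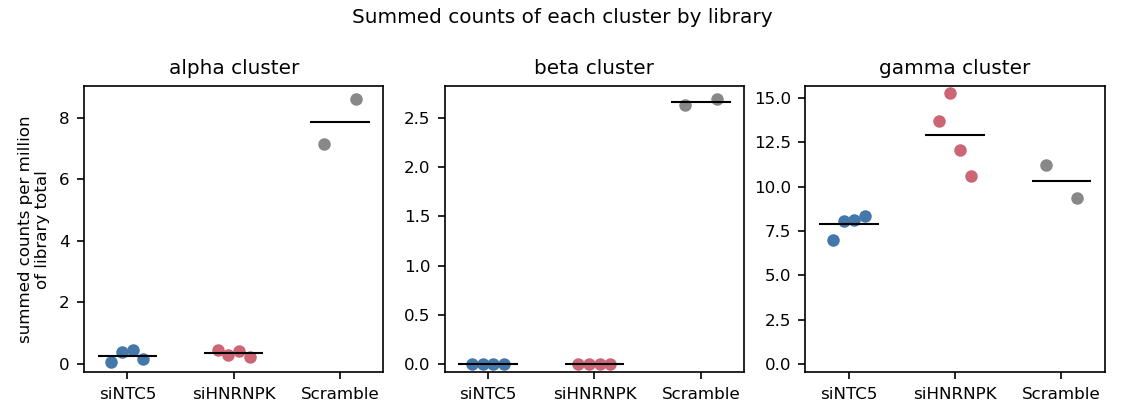
Summed counts of each cluster in every RNA library, as CPM of the library total without TMM, with the line at the group mean (4, 4 and 2 libraries). The beta points of the 8 libraries lie at 0, the alpha points at 0.473 or below, and the gamma points at 6.996 to 8.36 in siNTC5 and 10.6 to 15.3 in siHNRNPK.

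Between the beta and gamma clusters lies TAF7, which encodes a subunit of the general transcription factor TFIID. Of 28 neighbouring genes within 500 kb that have a promoter window, TAF7 was the one whose start lay in control lamin B1 and H3K9me3. It measured 76.8, 72.2, 76.5 and 73.7 CPM in siNTC5 and 138, 142, 155 and 149 CPM in siHNRNPK. The groups did not overlap, and TAF7 rose by 0.96 ± 0.05 on the log2 scale (SE; edgeR adjusted p = 2.9e-12), in 4 of 4 knockdown libraries. Its start, on the minus strand at base 141320784, lay in H3K9me3 under both siRNAs and 784 bases past the end of the lamin B1 remnant, whose edges fall on steps of 5 kb. The other end of TAF7 is at base 141318490 and the remnant ends at base 141320000, so most of the gene body lay inside the remnant. TAF7 is thus outside lamin B1 after knockdown by its start alone. SLC25A2, a mitochondrial carrier gene in the same interval, was listed at 0.

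The neighbouring genes within 500 kb changed in both directions. Of 27 tested 9 rose and 11 fell, with a median log2 fold change of -0.12, where 35.5% of all tested genes rose and 36.1% fell. Besides TAF7 the largest changes were those of ANKHD1-EIF4EBP3 (-1.27 ± 0.24), SLC35A4 (-0.93 ± 0.06), PCDH1 (-0.90 ± 0.08) and ANKHD1 (0.90 ± 0.14). ANKHD1 and ANKHD1-EIF4EBP3 overlap, so their reads can be split between them by the counting. With the Scramble libraries added as controls ANKHD1-EIF4EBP3 was at -0.78 and lost its call (edgeR adjusted p = 0.481), and it was at -1.71 in the TruSeq libraries and -0.89 in the Ligation libraries alone. PCDH1 is a protocadherin that lies outside the clusters.

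Genes known to act on the clusters moved both ways. Of 27 tested regulators 13 rose and 5 fell, 18 of 27 in all, with a median log2 fold change of 0.08. Over all tested genes 35.5% rose and 36.1% fell, 71.5% in all. SMC3 and WAPL, a cohesin subunit and the factor that releases cohesin from DNA, rose by 0.54 ± 0.04 and 0.57 ± 0.05. SMC1A, another cohesin subunit, fell by 0.69 on the log2 scale, from 258 ± 12.0 to 160 ± 6.84 CPM. LRIF1, which partners SMCHD1 on silent chromatin, rose by 0.68 ± 0.07, and the DNA methyltransferase DNMT3B fell by 0.62 on that scale, from 70.2 ± 5.39 to 45.8 ± 3.04 CPM. CTCF, named after its values were seen, rose by 0.37 ± 0.04, from 99.4 ± 1.81 to 128 ± 2.16 CPM. SMCHD1 and SETDB1, also named afterwards, which keep clustered protocadherin promoters silent in other cells, were at 0.02 ± 0.06 and -0.03 ± 0.05 and did not pass.

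Of 25 tested genes for signalling partners and for processing of the proteins 15 fell and 6 rose, with a median of -0.17, where 36.1% of all tested genes fell and 35.5% rose. WASF1, a subunit of the WAVE complex that binds the tails of some protocadherins, fell from 42.0 ± 2.10 to 25.8 ± 1.62 CPM. ABI2, of the same complex, had a log2 fold change of -0.42 ± 0.05. The protease FURIN was at -0.78 ± 0.09, and the gamma-secretase genes APH1A and PSENEN were at -0.42 ± 0.05 and 0.50 ± 0.08. Each of these 5 passed the test, with the largest edgeR adjusted p at 9.7e-06.

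Protocadherins and large cadherins outside the clusters also changed in both directions. Of 8 tested 2 rose and 3 fell, with a median of -0.09, and the other 10 of the 18 listed were below the filter. PCDH7, a non-clustered protocadherin, fell from 140 ± 5.97 to 71.0 ± 5.05 CPM, and PCDH1 fell from 47.0 ± 3.25 to 25.2 ± 2.53 CPM. FAT1, a giant cadherin, rose from 2973 ± 301 to 4403 ± 243 CPM, and FAT2 rose by 0.94 ± 0.24. FAT4 fell by 0.52 on the log2 scale, and in the TruSeq libraries alone it was at -0.35 (edgeR adjusted p = 0.0879). Of the classical cadherins 2 of 6 were tested. CDH1, the epithelial cadherin, rose from 98.9 ± 5.06 to 157 ± 9.94 CPM, and CDH3 fell from 219 ± 7.67 to 158 ± 6.65 CPM. The shares called in these lists, 62.5% to 84.0% in the lists of 8 or more tested genes, stand beside 71.5% over all genes.

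**Figure D5:**
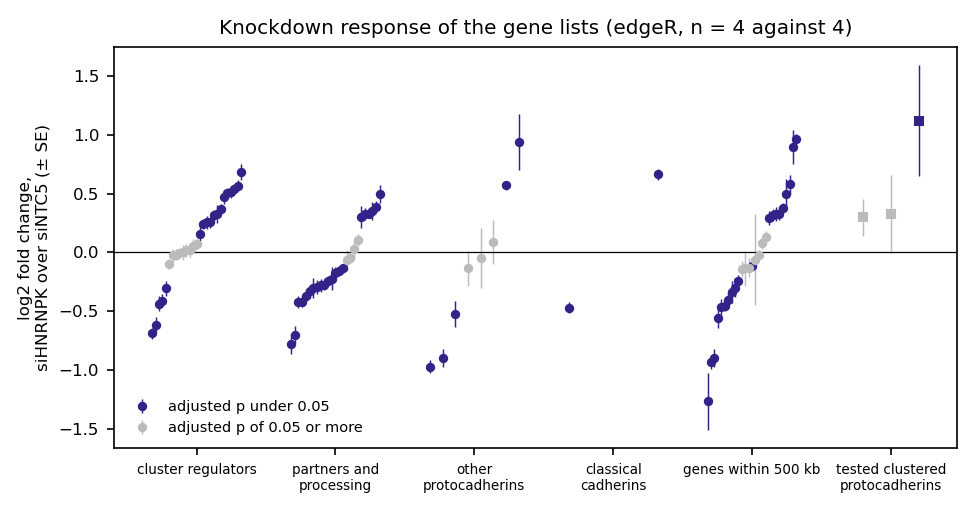
log2 fold change of siHNRNPK over siNTC5 for each tested gene of the 5 lists (circles) and the 3 tested clustered protocadherins (squares), with the standard error from edgeR, dark where the adjusted p was under 0.05 and grey otherwise. Each list holds genes on both sides of 0, and the standard errors of the clustered members are among the widest.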

How the data were processed

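RNA was read from deposited raw counts per gene symbol. Per the submitters' processing notes these came from STAR 2.7.1a and featureCounts, with Subread 2.0.6 for the 8 libraries, and ChIP reads were aligned with Bowtie2 2.5.1 to hg38 after fastp 0.23.2. The authors deposited ChIP domains with a score, whose unit, caller and pooling are not given in the sources used here. No per-sample column was left unused.

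Counts were filtered with filterByExpr, scaled by TMM and tested in edgeR 4.0.16 (R 4.3.3) by the quasi-likelihood test with kit and treatment as terms, adjusted by Benjamini and Hochberg over all tested genes at 0.05. Scramble was compared on 25527 shared names. SE is the log2 fold change over the root of F. Same-numbered libraries correlated in their deviations from the group means (r across genes of 0.1004, 0.4246, 0.3365 and 0.2653), so the numbers were treated as pairs in an alternative fit. Numbers 1 and 2 share one kit and 3 and 4 the other: from the means within a kit, r was 0.0582 for the first pair of numbers and 0.00904 for the second, and library 4 of siNTC5 correlated best with number 3. On simulated counts for this comparison, 187 of 200 genes changed 2-fold were called among 13933. The simulation held no kit effect and changed no other gene, and the 200 were drawn from all tested genes. It thus does not measure recovery at the level of the members, nor where 71.5% of genes are called. Precision of single members is limited by depth: 1 count is worth 0.04 to 0.08 CPM.

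A gene was in a domain when the base at its 5′ start was. Starts came from RefSeq (GRCh38.p14). Scripts used Python 3.11.15, pandas 2.3.3 and scipy 1.17.1. Members and lists were chosen with earlier results of these data known. Named genes are HNRNPK, called members, the most abundant member tested but not called, up to 5 called genes per list by absolute change, and, added after their values were seen, the other genes named.

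Alternatives were other normalisations, DESeq2 1.42.0, other filters, no kit term, the replicate block, added Scramble controls, each kit alone, each library left out, a minimum fold change, and other domain rules.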

Additional observations from a re-analysis of the deposited data

Results flagged for a closer look

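In PCDHGA11 the siHNRNPK replicate 2 library stood apart at 2.819 CPM, with the other 3 at 0.527 to 0.842 CPM. In LRIF1 the siNTC5 replicate 3 library stood apart at 34.6 CPM, with the others at 30.8 to 31.2 CPM. Both were found by Dixon's ratio for the gap of 1 library to the rest, 0.862 and 0.890 and thus above Dixon's critical value for 4 libraries. The check covered 56 groups of 4 libraries, from 28 genes and sums, and chance alone passes about 1 in 20 such groups.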

How the results depend on the processing

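The count of 1 called member became 0 with DESeq2, no kit term, a minimum mean of 50 counts, added Scramble controls or the Ligation libraries alone, 8 with no filter, and ran from 0 to 1 when each library was left out. The replicate block gave 1 called member and 9872 called genes. With added Scramble controls PCDHGA10 reversed to -0.0368 (adjusted p = 0.920). Calls between Scramble and siNTC5 numbered 6, and 13 with no filter, 2 of them lower. The Scramble titles number the libraries 5 and 6 and the library names 1 and 2; in the TruSeq libraries alone there were 9 calls, and 9 with the latter numbers as a replicate block, a fit added after seeing the data. With a log2 fold change of at least 1 the calls fell to 0 among regulators, partners, other protocadherins and classical cadherins, and to 1 among neighbours, which had 11 with added Scramble controls. By at least 50% of the gene body, 21 members lay in control lamin B1, 20 lost it and 19 of those kept H3K9me3. With domains of at least 100 kb, or with scores at or above the list median, the members in knockdown lamin B1 and the beta span covered by it were both 0; the score limit also left 0 members and 0% of the beta span in H3K9me2. Measured from first to last start, alpha coverage was 74.2% for control lamin B1 and 79.8% for H3K9me3 in both conditions. The gamma sum's ratio moved by more than the spread of the knockdown libraries without PCDHGA10 and in either kit alone.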
